A study of Mus musculus with 2 samples.

Results

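The genes described here encode the subunits of the proteasome together with its activators, its assembly chaperones and the regulator PI31. They were taken as every gene model whose symbol starts with Psm, goes on with a letter from a to g and ends in a number, with or without 1 further letter, which gave 49 of the 34745 models in the files. All 49 matched a protein-coding gene of GENCODE M21 on GRCm38, 36 of them with an identical start and end. RNA-seq libraries were made from haematopoietic stem and progenitor cells (mHSPCs) of C57BL/6 mice pretreated with 5-fluorouracil, which were enriched from femoral marrow with a kit. The cells carried, by lentivirus, either PML/RARa(2KR), called 2KR here, or the unmodified PML/RARa(WT), called WT, the fusion oncoprotein of acute promyelocytic leukaemia, and the series title says that 2 lysines of it are at issue. Both cultures received 6 µg/ml polybrene and a 40 min spin, were changed to fresh medium after 24 h and were grown with the cytokines SCF at 50 ng/ml and IL-3 and IL-6 at 10 ng/ml each, and with hydrocortisone and 20% fetal bovine serum before sorting and RNA extraction. Each form had 1 library; neither the number of mice behind it nor the gate of the sort was stated. An empty-vector arm named in the protocol was not analysed here, and the files hold no model of the fusion transcript that could check the labels.

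The proteasome degrades proteins that carry ubiquitin chains. Its 20S core is a barrel of outer rings of alpha subunits around inner rings of beta subunits, and 3 kinds of beta subunit, encoded by Psmb5, Psmb6 and Psmb7, cut the substrate. The 19S regulatory particle caps the core: a ring of ATPases encoded by the Psmc genes unfolds substrates, and the Psmd subunits bind ubiquitin, remove it and hold the particle together. In cells of the blood and in cells exposed to interferon, Psmb8, Psmb9 and Psmb10 take the places of Psmb5, Psmb6 and Psmb7 and form the immunoproteasome, which alters the peptides available for MHC class I. Cleavage of proteins by the proteasome is also part of how arsenic and retinoic acid remove PML/RARa from leukaemia cells. The transcription factor NRF1, encoded by Nfe2l1, induces proteasome subunit genes through antioxidant response elements when proteasome capacity falls short.

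The start sites of Psmb5, Psmb6, Psmb8, Psmb9, Psmb10 and Psmd9 are shown because they span the ratios described here, with Psmb8 at the low end and Psmb10 near the high end. Each sequence runs 5′ to 3′ on the strand of the gene, from 250 bases before to 50 bases after the RefSeq start in GRCm38.p6. Capitals mark matches to the antioxidant response element core TGACNNNGC (Psmb5, Psmb6 and Psmd9), the gamma-activated site core TTCNNNGAA (Psmb8), the CCAAT box (Psmb9) and the interferon-stimulated response element core, which is GAAA, any pair of bases and GAAA again (Psmd9).
Psmb5 promoter, chr14:54617946-54618245, minus strand: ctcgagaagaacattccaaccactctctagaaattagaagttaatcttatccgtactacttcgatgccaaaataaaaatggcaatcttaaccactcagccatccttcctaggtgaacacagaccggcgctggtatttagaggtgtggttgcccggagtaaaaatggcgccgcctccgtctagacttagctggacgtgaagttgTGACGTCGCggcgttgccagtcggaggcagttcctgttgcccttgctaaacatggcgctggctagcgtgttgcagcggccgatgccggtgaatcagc
Psmb6 promoter, chr11:70525107-70525406, plus strand: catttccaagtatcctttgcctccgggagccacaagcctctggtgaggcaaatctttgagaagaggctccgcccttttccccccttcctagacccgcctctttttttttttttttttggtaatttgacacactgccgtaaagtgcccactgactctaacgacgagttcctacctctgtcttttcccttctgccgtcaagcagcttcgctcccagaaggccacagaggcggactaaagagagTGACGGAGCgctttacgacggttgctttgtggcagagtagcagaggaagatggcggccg
Psmb8 promoter, chr17:34197945-34198244, plus strand: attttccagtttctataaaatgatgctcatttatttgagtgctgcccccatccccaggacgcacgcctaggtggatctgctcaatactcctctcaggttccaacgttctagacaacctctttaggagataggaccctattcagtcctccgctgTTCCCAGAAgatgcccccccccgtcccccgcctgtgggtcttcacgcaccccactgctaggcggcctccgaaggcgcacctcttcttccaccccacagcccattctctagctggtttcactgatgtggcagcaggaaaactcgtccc
Psmb9 promoter, chr17:34187281-34187580, minus strand: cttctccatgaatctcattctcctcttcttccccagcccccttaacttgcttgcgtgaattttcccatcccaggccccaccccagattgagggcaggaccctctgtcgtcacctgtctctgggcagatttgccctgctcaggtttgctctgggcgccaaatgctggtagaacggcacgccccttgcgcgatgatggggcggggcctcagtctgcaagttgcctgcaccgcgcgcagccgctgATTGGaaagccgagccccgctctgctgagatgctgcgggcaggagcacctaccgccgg
Psmb10 promoter, chr8:105938343-105938642, minus strand: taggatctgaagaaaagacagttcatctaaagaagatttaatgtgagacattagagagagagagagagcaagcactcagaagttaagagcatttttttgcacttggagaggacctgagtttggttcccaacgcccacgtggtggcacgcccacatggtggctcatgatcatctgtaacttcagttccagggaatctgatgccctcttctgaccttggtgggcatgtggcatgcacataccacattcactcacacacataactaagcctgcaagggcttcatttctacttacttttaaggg
Psmd9 promoter, chr5:123227940-123228239, plus strand: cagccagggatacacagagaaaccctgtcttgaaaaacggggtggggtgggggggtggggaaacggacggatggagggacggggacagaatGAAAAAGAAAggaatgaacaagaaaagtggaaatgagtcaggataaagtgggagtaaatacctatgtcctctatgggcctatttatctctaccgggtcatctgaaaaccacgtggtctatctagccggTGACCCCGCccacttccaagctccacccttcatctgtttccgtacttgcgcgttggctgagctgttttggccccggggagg
The Psmb10 window held none of these 4 motifs.

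Motifs were searched on both strands, and overlapping matches were allowed. Promoter windows were found for 41 of the 49 genes, which do not include Psmb7. The antioxidant core lay in 6 of the 41 (14.6%), against 14.0% of all 27025 genes with a window. CCAAT was present in 14 of the 41 (34.1%), against 41.1% of all genes. The interferon-stimulated core was in 5 (12.2%), against 3.99% of all genes, and none of these 5 was Psmb8, Psmb9 or Psmb10. The windows of Psmb8, Psmb9 and Psmd9 lie inside the gene models of the files. Sequence before the starts of those 3 models was therefore not searched, and elements there would be missed. The gamma-activated core was in 3 (7.32%), against 9.55%. The members with an antioxidant core were Psmb5, Psmb6, Psmc6, Psmd9, Psmd12 and Psme4, and it began 47 bases before the start in Psmb5, 9 bases before it in Psmb6 and 31 bases before it in Psmd9. Log2 ratios of 2KR to WT had a median of 0.18 over these 6 genes and of 0.12 over the other 34 tested genes with a window. For CCAAT the median was 0.07 over 13 tested genes with it and 0.17 over 27 without it. For the interferon-stimulated core it was 0.13 over 5 genes with it and 0.12 over 35 without, and for the gamma-activated core 0.15 over 3 and 0.12 over 37.

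The 2KR library held 20462011 counts and the WT library 17606168. The labelled cell type was checked against marker genes. All 7 progenitor markers were above 1 CPM in both libraries, with Kit at 1158 CPM in 2KR and 1359 in WT, and Myb at 851 and 613. Fcer1a, Xcr1, Cd3e, Ncr1 and Hbb-bs had 0 counts in both, which allows up to 0.146 CPM in 2KR and 0.172 in WT when 3 counts are taken as the limit. Csf1r had 12 counts in 2KR and 10 in WT. The stromal marker Pdgfrb was high, at 451 CPM in 2KR and 543 in WT, while Col1a1 was at 0.825 and 1.66 CPM. The macrophage markers summed to 31.5 CPM in 2KR and 34.5 in WT, the dendritic markers to 33.2 and 18.5, and the erythroid markers to 22.0 and 11.8. Within the macrophage sum directions differed: Adgre1 had 13.3 CPM in 2KR and 6.92 in WT, and Cd68 had 16.6 and 26.8. Of the dendritic sum, 32.6 CPM in 2KR and 18.0 in WT were Flt3, which is also 1 of the 7 progenitor markers. Of the erythroid sum, 20.1 CPM in 2KR and 10.7 in WT were Hba-a1. T and NK cell markers summed to 1.94 CPM in 2KR and 4.12 in WT, B cell markers to 0.582 and 0.0572, and stromal markers, nearly all of it Pdgfrb, to 461 and 549. The 5 mast cell and basophil markers summed to 3347 CPM in 2KR and 6410 in WT. They did not share a direction: Cpa3 had 2525 CPM in 2KR and 5468 in WT, and Hdc 371 and 749, while Mcpt8 had 449.8 CPM in 2KR and 190.1 in WT, a ratio of 2.37 (2.27 to 2.46). The part of these marker levels in the values below was not tested. In such bulk samples, fewer cells of a type and less RNA per cell cannot be told apart.

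In 2KR cells the proteasome genes were slightly higher as a group, and most differed little one by one. Counts were scaled to library size with the TMM method and expressed as CPM, the count divided by the scaled library total. A gene was tested when its mean was at least 1 CPM, which 47 of the 49 genes and 12466 of all models did. Over the 47 genes the log2 ratios of 2KR to WT had a median of 0.13, with quartiles of 0.03 and 0.23, against a median of 0.02 and quartiles of -0.21 and 0.23 over all models tested. The ratio was above 1 for 37 of the 47 genes (78.7%), against 52.3% of all models. With scaling by library totals alone, Psma6, Psmb5, Psmd6 and Psmf1 changed sides and 41 were above 1. All 49 genes together took 0.362% of counts in 2KR (Wilson 95% interval 0.359 to 0.364) and 0.326% in WT (0.324 to 0.329). Since each form had 1 library, no ratio here has a replicate check and no p-value was computed. Intervals are exact 95% intervals of the ratio of counts, or of a share of counts, and cover counting error only.

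Of the 47 genes, 6 were at least 25% higher in 2KR (12.8%), against 16.9% of all models, and 0 were at least 20% lower, against 18.1%, limits that are the same distance from 1 on the log2 scale of CPM + 1. The share that was higher was near that of all models and is not a result about these genes. Calls use CPM + 1, so a gene of low level whose printed ratio is just past 25%, such as Psmg1, can fall short. The 6 were Psmg4, Psmb10, Psmg3, Psmd3, Psmd9 and Psma3. At 1.5-fold, 2 were higher, Psmg4 and Psmb10 (4.26% against 6.92%), and 0 were lower, against 9.67%. None differed 2-fold, while 2.66% of all models were at least 2-fold higher and 4.56% at least 2-fold lower. The other 41 genes, 87.2%, lay within these limits, against 65.0% of all models. Among genes with a mean of at least 20 CPM, a level chosen after the values were seen, 3 of 39 members were at least 25% higher, against 13.7% of all such models, and 0 were lower, against 13.8%. The counting interval lay wholly above 1 for 28 of the 47 genes, against 31.6% of all models, and wholly below 1 for 1 gene, Psmb8, against 28.5%. The 47 genes drew more reads than the models tested, with a median of 68.4 against 33.2 CPM, and deeper counts give narrower intervals.

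**Figure D1:**
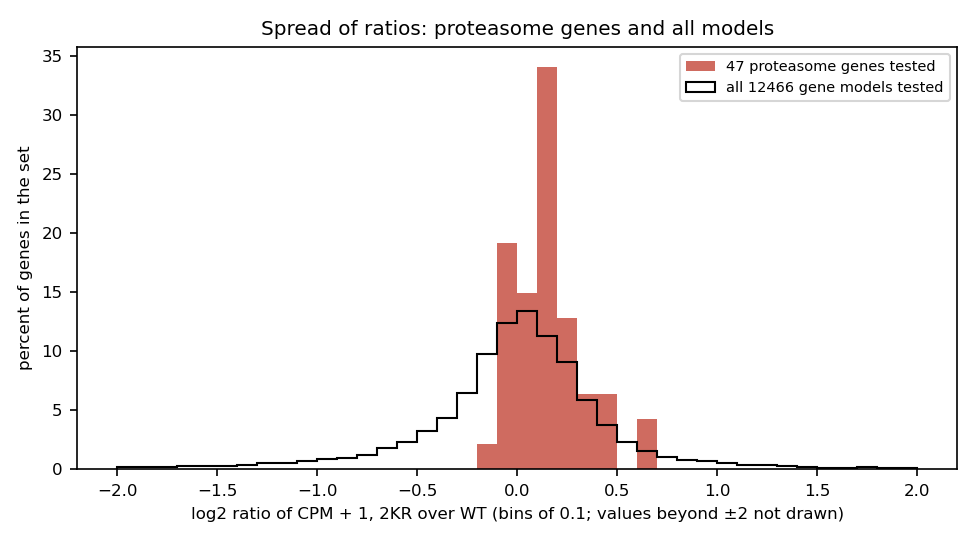
Distribution of the log2 ratio of CPM + 1, 2KR over WT, in bins of 0.1, as the percent of genes in each set: 47 proteasome genes (filled) and all 12466 gene models tested (line). The proteasome genes lie between -0.19 and 0.62 with a median of 0.13, and all models spread on both sides of a median of 0.02.

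The alpha ring had a median log2 ratio of 0.17 over its 7 genes, and its summed level was 474 CPM in 2KR and 439 in WT, 1.08-fold higher (1.05 to 1.11). Psma3 had 34.0 CPM in 2KR (700 counts) and 26.1 in WT (456 counts), a ratio of 1.30 (1.16 to 1.47). Psma5 had 20.8 CPM in 2KR and 16.6 in WT, with a ratio between 1.07 and 1.45, and lay just inside the 25% limit. These were the largest ratios of the ring. Psma2 had 99.7 CPM in 2KR and 88.4 in WT, and Psma4 had 84.1 and 74.4, each a ratio of 1.13. Psma1 was level, at 102 CPM in 2KR and 105 in WT, a ratio of 0.974 (0.915 to 1.04). Psma8, the testis form of an alpha subunit, had 6 counts in 2KR and 2 in WT, a ratio of 2.55 with an interval from 0.455 to 25.8, and was not tested.

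Of the structural beta subunits, all 4 had ratios above 1, from 1.02 for Psmb3 to 1.18 for Psmb4. Psmb4 had 78.5 CPM in 2KR and 66.3 in WT (1.10 to 1.28). Psmb2 had 91.3 CPM in 2KR and 81.6 in WT, a ratio of 1.12 (1.04 to 1.20), and Psmb1 had 104 CPM in 2KR and 94.1 in WT, a ratio of 1.11 (1.04 to 1.18). The intervals of Psmb1, Psmb2 and Psmb4 overlap one another. The 14 constitutive core genes summed to 969 CPM in 2KR and 892 in WT, 1.09-fold higher (1.06 to 1.11).

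**Figure D2:**
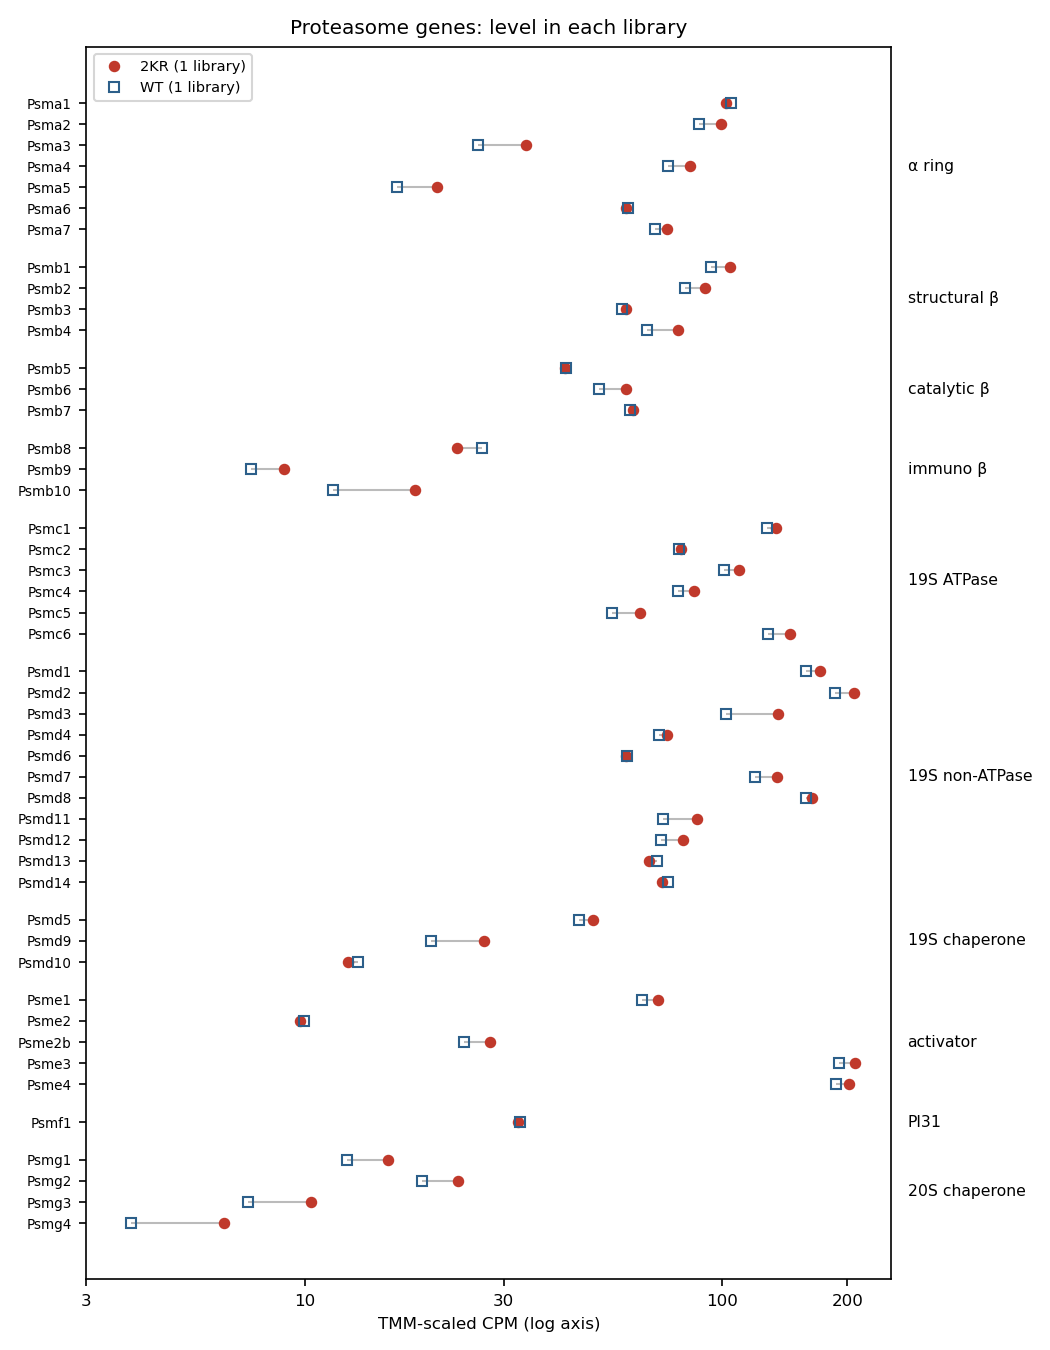
Level of each of the 47 tested proteasome genes in 2KR (filled circles) and WT (open squares), 1 library each, as TMM-scaled CPM on a log axis, grouped by role. Levels reach from 6.41 CPM in 2KR and 3.83 in WT for Psmg4 to 209 and 190.5 for Psme3, and for most genes the 2 points lie close together.

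The constitutive catalytic subunits were close between the cultures, while those of the immunoproteasome had ratios on both sides of 1. Psmb5, the chymotrypsin-like subunit (ENSMUSG00000022193, chromosome 14, 54614120 to 54617995 in GRCm38), had 42.1 CPM in 2KR and 42.4 in WT, a ratio of 0.994 (0.900 to 1.10). Psmb7, the trypsin-like subunit, had 61.1 CPM in 2KR and 60.1 in WT, a ratio of 1.02 (0.937 to 1.11). Psmb6, the caspase-like subunit, had 58.9 CPM in 2KR and 50.7 in WT, a ratio of 1.16 (1.07 to 1.27). None of these 3 passed the 25% limit.

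Psmb10, which replaces Psmb7 (ENSMUSG00000031897, chromosome 8, 105935728 to 105938392), had 18.4 CPM in 2KR (380 counts) and 11.7 in WT (205 counts), a ratio of 1.57 (1.32 to 1.87). Psmb8, which replaces Psmb5 (ENSMUSG00000024338, chromosome 17, 34197721 to 34201454), had 23.2 CPM in 2KR (479 counts) and 26.6 in WT (465 counts), a ratio of 0.874 (0.768 to 0.995). Psmb9, which replaces Psmb6 (ENSMUSG00000096727, chromosome 17, 34181988 to 34187764), had 8.93 CPM in 2KR (184 counts) and 7.44 in WT (130 counts), a ratio of 1.20 (0.954 to 1.52). The 3 immunoproteasome ratios therefore did not lie on the same side of 1, and the intervals of Psmb8 and Psmb10 do not overlap. The interval of Psmb9 holds 1, and that of Psmb8 ends so near 1 that it depends on the scaling. The log2 ratio of Psmb8 was -0.19, and -0.17 with library totals only. Psmb11, the beta subunit of the thymus cortex, had 0 counts in both libraries.

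Within each catalytic pair, the balance between the immuno and the constitutive gene was compared as a share of counts, which does not depend on scaling. Psmb10 made up 23.2% of the counts of Psmb10 and Psmb7 in 2KR (exact 95% interval 21.1 to 25.3) and 16.3% in WT (14.3 to 18.5). The ratio of Psmb10 to Psmb7 was thus 1.55 times as large in 2KR as in WT (1.28 to 1.88). Psmb7 overlaps the gene Nek6 on the opposite strand, so this ratio is uncertain if counting did not use strand. Psmb8 made up 35.6% of the counts of its pair with Psmb5 in 2KR (33.0 to 38.2) and 38.6% in WT (35.8 to 41.4), and the ratio of its balance between the cultures was 0.879 (0.746 to 1.04). Psmb9 made up 13.2% with Psmb6 in 2KR (11.4 to 15.0) and 12.8% in WT (10.8 to 15.0), a ratio of balances of 1.03 (0.807 to 1.33). For Psmb8 and Psmb9 the difference was within counting error. Over all 6 genes the immuno share was 23.8% in 2KR (22.5 to 25.1) and 23.0% in WT (21.6 to 24.4), a difference within counting error that does not show the one in Psmb10.

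**Figure D3:**
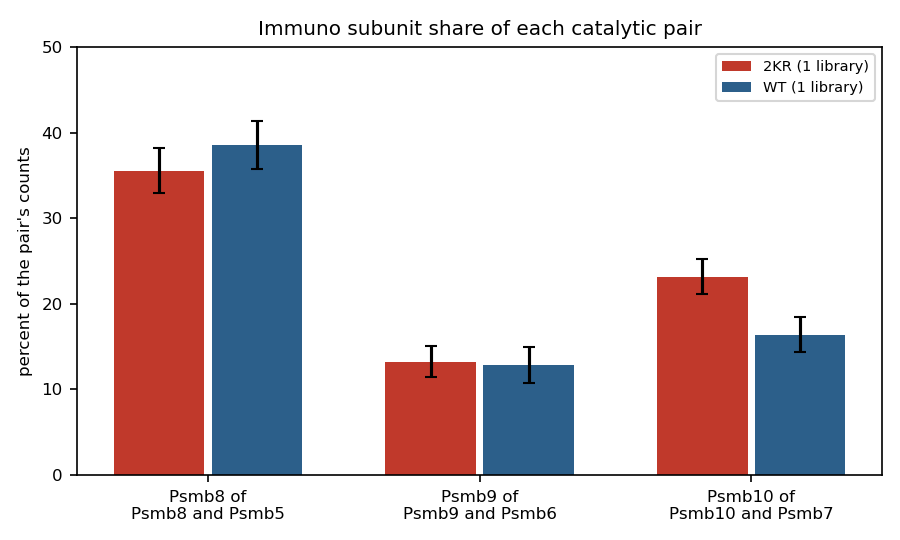
Share of each catalytic pair's counts that came from the immunoproteasome gene, in percent, for 2KR (left bars) and WT (right bars), 1 library each, with exact 95% binomial intervals that cover counting error only. The Psmb10 share was 23.2% in 2KR and 16.3% in WT with intervals that do not overlap, and the intervals of the other 2 pairs overlap. Psmb7 overlaps Nek6 on the opposite strand, and the strand setting of the counting is not known.

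A share of counts is not a share of transcripts, because longer genes give more reads. In the deposited FPKM, which divides by the length of the gene model, Psmb10 stood to Psmb7 as 0.845 in 2KR and 0.547 in WT. Per kilobase of the principal transcript of GENCODE M21, or of the model where that is shorter, the same ratio was 0.275 in 2KR and 0.178 in WT. For Psmb8 to Psmb5 the ratio was 0.125 in 2KR and 0.142 in WT in FPKM, and 0.295 and 0.336 per kilobase of transcript. For Psmb9 to Psmb6 it was 0.0747 in 2KR and 0.0723 in WT in FPKM, and 0.0895 and 0.0866 per kilobase of transcript. On both scales each constitutive gene was above its immuno counterpart in both cultures. The models behind the FPKM were long: 31 of the 47 were over 1.5 times the principal transcript, with a median of 2.25 times, and the Psmb9 model was 6303 bases against 1352.

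Psmb9, Tap1, Psmb8 and Tap2 lie side by side on chromosome 17, in the region of the MHC, where Tap1 and Tap2 encode the transporter that carries peptides made by the proteasome into the endoplasmic reticulum. The Psmb9 and Tap1 models overlap by 212 bases, 495 bases lie between Tap1 and Psmb8, and 2072 between Psmb8 and Tap2. Tap1 had 36.1 CPM in 2KR and 35.0 in WT, a ratio of 1.03 (0.926 to 1.15). Tap2 had 49.3 CPM in 2KR and 57.1 in WT, 1.16-fold lower in 2KR (1.06 to 1.27). All 4 lay within the limits of 25% higher and 20% lower. Psmb10 lies on another chromosome, within an antisense model that had 1 count in 2KR and 0 in WT.

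Immunoproteasome genes are known to respond to interferon, so a list of 16 interferon genes was set beside them. Of these, 12 were tested, with a median log2 ratio of -0.13. By the same limits 1 was higher in 2KR, Nlrc5 (8.33%, against 16.9% of all models), and 2 were lower, among them B2m (16.7%, against 18.1%). Neither share exceeded that of all models, and neither is a result about these genes. Nlrc5, the activator of MHC class I transcription, had 5.14 CPM in 2KR and 3.09 in WT, a ratio of 1.67 (1.19 to 2.36) from 106 and 54 counts. B2m, the light chain of MHC class I, had 518 CPM in 2KR and 708 in WT, 1.37-fold lower (1.33 to 1.40). Irf1 was level at 14.5 CPM in 2KR and 15.2 in WT. The strongly inducible genes Ifit1, Ifit3 and Usp18 had at most 3 counts in either library, and Isg15 had 39 counts in 2KR and 23 in WT.

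The 19S regulatory particle differed by about as much as the core. Its 17 genes summed to 1876 CPM in 2KR and 1716 in WT, 1.09-fold higher (1.08 to 1.11). The core took 34.1% of the counts of core and particle together in 2KR (33.7 to 34.5) and 34.2% in WT (33.8 to 34.6), so the balance between them differed by less than counting error. All 6 ATPase genes had ratios above 1, which Psmc2 lost when ratios were centred on the median of all models. The largest ratio of the ring was that of Psmc5, 1.17 (1.07 to 1.27), with 63.8 CPM in 2KR and 54.6 in WT. Psmc6 had 146 CPM in 2KR and 129 in WT, a ratio of 1.13 (1.07 to 1.19). Psmc4 had 85.6 and 78.7 CPM, a ratio of 1.09 (1.01 to 1.17), and Psmc1 had 135 and 128, a ratio of 1.05 (0.993 to 1.11).

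Psmd3, a subunit of the lid (ENSMUSG00000017221, chromosome 11, 98682554 to 98695979), had the largest ratio of the non-ATPase subunits. It had 136 CPM in 2KR (2808 counts) and 103 in WT (1794 counts), a ratio of 1.33 (1.251 to 1.410), and it was the 1 gene of 11 past the 25% limit. Psmd11, a lid subunit that contacts the core, had 87.1 CPM in 2KR and 72.1 in WT, a ratio of 1.21 (1.12 to 1.30). Psmd12, also of the lid, had 80.8 CPM in 2KR and 71.4 in WT, a ratio of 1.13 (1.05 to 1.22). Psmd7 had 136 CPM in 2KR and 120.1 in WT, a ratio of 1.13 (1.07 to 1.20). Its partner Psmd14, the deubiquitinase of the lid, had 71.7 CPM in 2KR and 74.1 in WT, a ratio of 0.968 (0.898 to 1.04). Psmd8 had 164 and 159 CPM, and Psmd13 had 66.9 and 69.9, ratios of 1.04 and 0.957. The lid genes thus spread from 0.957 to 1.33 although their products are held in 1 complex.

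**Figure D4:**
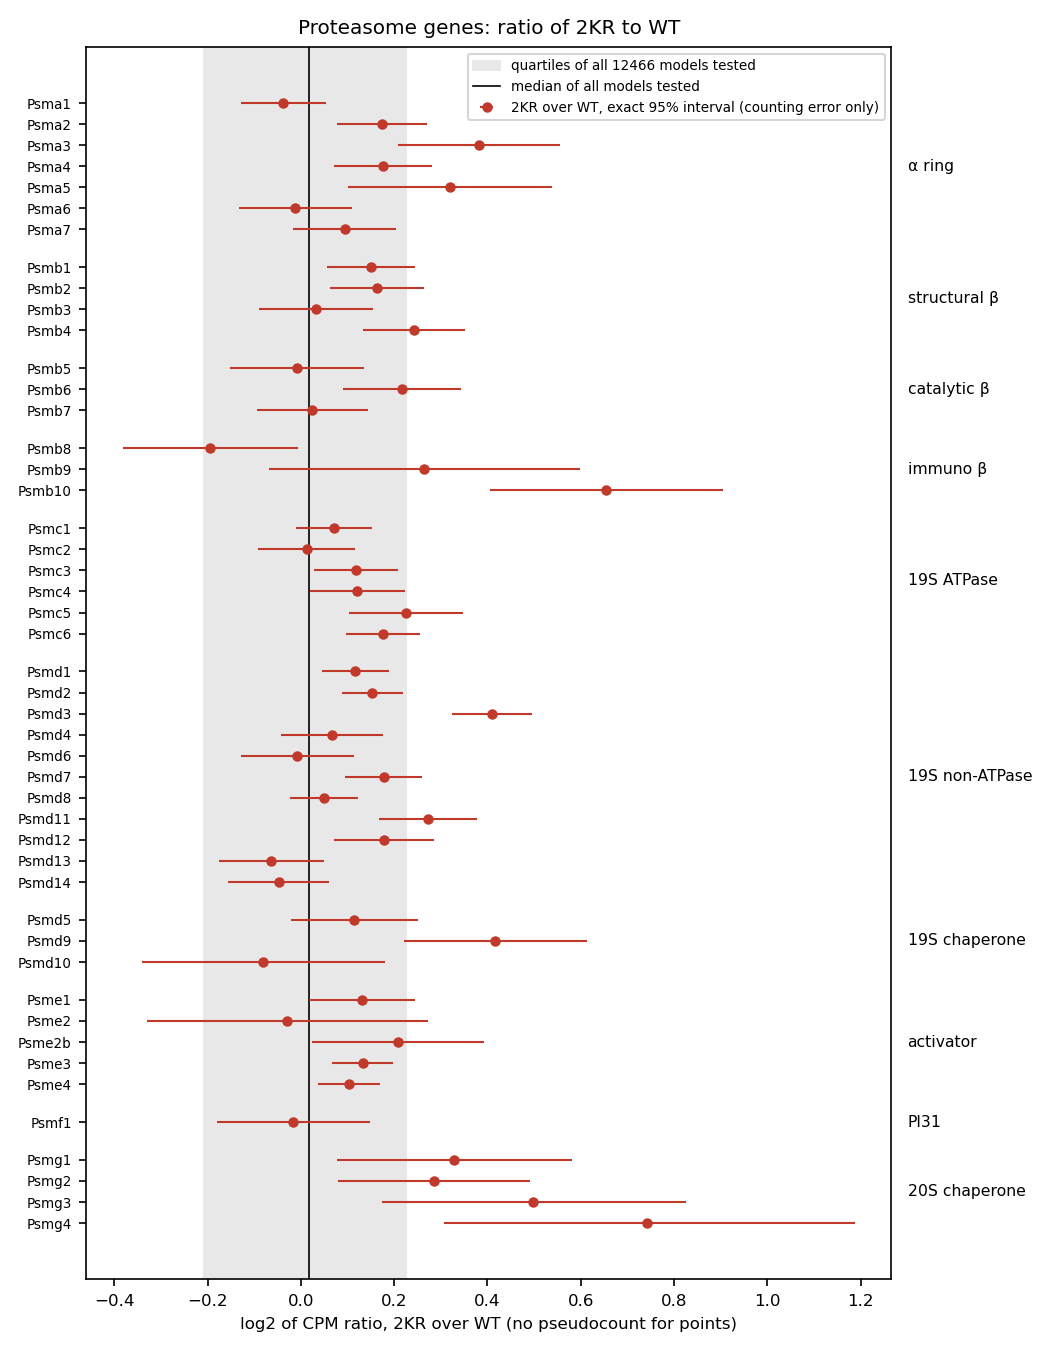
Ratio of CPM in 2KR over WT for each of the 47 tested proteasome genes on a log2 axis without a pseudocount, grouped by role, with exact 95% intervals that cover counting error only. The grey band marks the quartiles of all models tested and the line their median of 0.02, both on the log2 scale of CPM + 1, unlike the points. Psmg4, Psmb10, Psmg3, Psmd9, Psmd3 and Psma3 lie farthest to the right, and Psmb8 lies farthest to the left.

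The assembly chaperones of the core had the highest ratios of any role. Psmg1 and Psmg2 act as a pair and Psmg3 and Psmg4 as another pair in building the alpha ring. Together the 4 genes had 56.0 CPM in 2KR and 43.0 in WT, 1.30-fold higher (1.19 to 1.43), with a median log2 ratio of 0.38. Psmg4 (ENSMUSG00000071451, chromosome 13, 34162964 to 34178172) had 6.41 CPM in 2KR (132 counts) and 3.83 in WT (67 counts), a ratio of 1.67 (1.24 to 2.28). Psmg3 had 10.3 CPM in 2KR (213 counts) and 7.32 in WT (128 counts), a ratio of 1.41 (1.13 to 1.77). Psmg1 had 15.9 CPM in 2KR and 12.6 in WT, a ratio of 1.26 (1.06 to 1.5), and Psmg2 had 23.3 and 19.2, a ratio of 1.22 (1.06 to 1.40). All 4 were higher in 2KR, and their intervals overlap one another. Their counts were among the lowest of the family, and ratios of low counts scatter more. Part of the Psmg3 transcript is also shared with another model, as given below.

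The chaperones of the 19S base were not alike. Psmd9 had 26.9 CPM in 2KR and 20.1 in WT, a ratio of 1.34 (1.17 to 1.53). Psmd5 had 49.1 CPM in 2KR and 45.4 in WT, a ratio of 1.08 (0.986 to 1.19). Psmd10, also known as gankyrin, had 12.7 CPM in 2KR and 13.4 in WT, a ratio of 0.946 (0.790 to 1.13).

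The activators and PI31 were close between the cultures, and 0 of 6 passed the 25% or 20% limit. Psme3 and Psme4 encode activators of the nucleus. Psme3 had 209 CPM in 2KR and 190.5 in WT, a ratio of 1.10 (1.05 to 1.15), and Psme4 had 202 and 188, a ratio of 1.07 (1.03 to 1.13). Psme1, a subunit of the activator that interferon induces, had 70.4 CPM in 2KR and 64.3 in WT, a ratio of 1.10 (1.01 to 1.19). Psme2, its partner in that ring, had 9.75 CPM in 2KR and 9.95 in WT, a ratio of 0.980 (0.796 to 1.21). Psme2b on chromosome 11 had 27.8 CPM in 2KR and 24.1 in WT, a ratio of 1.15 (1.02 to 1.31). Of the 50-base windows of the Psme2 transcript, 59.3% occur in a transcript of another gene, and 541 windows are shared with Psme2b, so reads of the pair may have been split or lost and both levels are uncertain. Psmf1, which encodes PI31, had 32.5 CPM in 2KR and 32.8 in WT, a ratio of 0.989 (0.883 to 1.11).

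Levels of different subunits were compared per length. In FPKM the order of the 47 genes was nearly the same in both cultures, with Spearman's rho of 0.994, a description over genes that share libraries and lengths. The 14 core genes ran from 5.47 FPKM (Psma3) to 106 (Psma2) in 2KR and from 4.14 to 93.0 in WT, a spread of 19.4 times and 22.5 times. Per kilobase of principal transcript the spread was 8.91 times in 2KR and 10.4 times in WT. On this scale Psma3 was at 11.9 in 2KR and 9.16 CPM per kilobase in WT and Psma5 at 16.8 and 13.4, while the other 12 core genes lay between 48.4 and 106 in 2KR and between 48.7 and 94.9 in WT. The length used was 2846 bases for Psma3 and 766 to 1239 for the other core genes, which lowers Psma3 and widens the spread. Of the windows of the Psma5 transcript 55.4% occur in other genes, and of those of Psma3 22.0%. Shares for Psmb5 and Psmb3 were 57.1% and 55.8%, and these genes had 48.4 and 76.9 CPM per kilobase in 2KR. The models sharing most windows with Psmb5 and Psmb3 were not in the files. That of Psma5, Gm8394, had 297 counts in 2KR and 211 in WT. The part of shared sequence and of length in the low levels of Psma3 and Psma5 was not tested. The 17 genes of the 19S particle spread 3.49 times in 2KR and 4.07 times in WT per kilobase of transcript.

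Shared sequence touched other members too. A window shared with another gene was found in 25 of the 49 genes, and in 15 it covered at least 10% of windows. The 23 tested genes with no shared window had a median log2 ratio of 0.12, with 18 above 1, 3 at least 25% higher and 0 at least 20% lower. Psmb7 shares 28.1% of its windows with the overlapping gene Nek6, which had 2016 counts in 2KR and 1316 in WT, on the opposite strand, so its ratio is uncertain if counting did not use strand. Psma3 overlaps the opposite-strand model 3110056K07Rik over 4733 bases, which had 171 counts in 2KR and 183 in WT. Psmg3 overlaps the model Gm26938 on the same strand over 2816 bases and shares 22.7% of its windows with it. Gm26938 had 0 counts in both libraries, and reads of the shared part may have been lost. Psmb10, Psmd3 and Psmg4 shared no window.

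The genes that work with the proteasome but lie outside the family gave a list of 32, of which 31 were found in the files and tested. Their median log2 ratio was 0.09. By the same limits 1 was higher, Uchl5, and 4 were lower, among them Zfand2a, Nfe2l1 and Ngly1. The shared background is that of all models above, 16.9% higher and 18.1% lower. The rest lay within these limits.

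Zfand2a, a zinc finger protein of the 19S particle that is induced by arsenite (chromosome 5, 139471211 to 139484549), had 6.89 CPM in 2KR (142 counts) and 33.3 in WT (583 counts), 4.84-fold lower (4.02 to 5.85). No proteasome gene differed by as much. Ubb, a polyubiquitin gene, had 701 CPM in 2KR and 682 in WT, a ratio of 1.03. Nfe2l1 had 48.3 CPM in 2KR and 66.7 in WT, 1.38-fold lower (1.27 to 1.51). Ngly1, the enzyme that removes sugars from NRF1 and is needed for its activity, had 37.7 CPM in 2KR and 47.7 in WT, 1.27-fold lower (1.15 to 1.40). Vcp, the unfoldase that draws NRF1 out of the endoplasmic reticulum, had 269.8 CPM in 2KR and 230.3 in WT, a ratio of 1.17 (1.12 to 1.22). Ddi2, the protease that cuts NRF1, had 99.3 CPM in 2KR and 92.1 in WT, a ratio of 1.08 (1.01 to 1.15), and Nfe2l2, which encodes the related factor NRF2, had 206 and 201, a ratio of 1.02 (0.980 to 1.07).

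Partners that bind the particle or help to build the core differed in direction. Uchl5, a deubiquitinase of the 19S base, had 45.7 CPM in 2KR and 36.1 in WT, a ratio of 1.26 (1.14 to 1.40). Its receptor Adrm1 had 42.6 CPM in 2KR and 48.7 in WT, 1.14-fold lower (1.04 to 1.26). Txnl1, a thioredoxin bound to the particle, had 111 CPM in 2KR and 94.0 in WT, a ratio of 1.18 (1.10 to 1.26). Pomp, the maturation factor of the core, had 39.5 CPM in 2KR and 38.7 in WT, a ratio of 1.02 (0.919 to 1.13). Sem1, listed in the files as Shfm1, had 47.9 CPM in 2KR and 45.0 in WT, a ratio of 1.06 (0.967 to 1.17). The interval of Pomp overlaps those of Psmg1, Psmg2 and Psmg3, and lies below that of Psmg4.

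**Figure D5:**
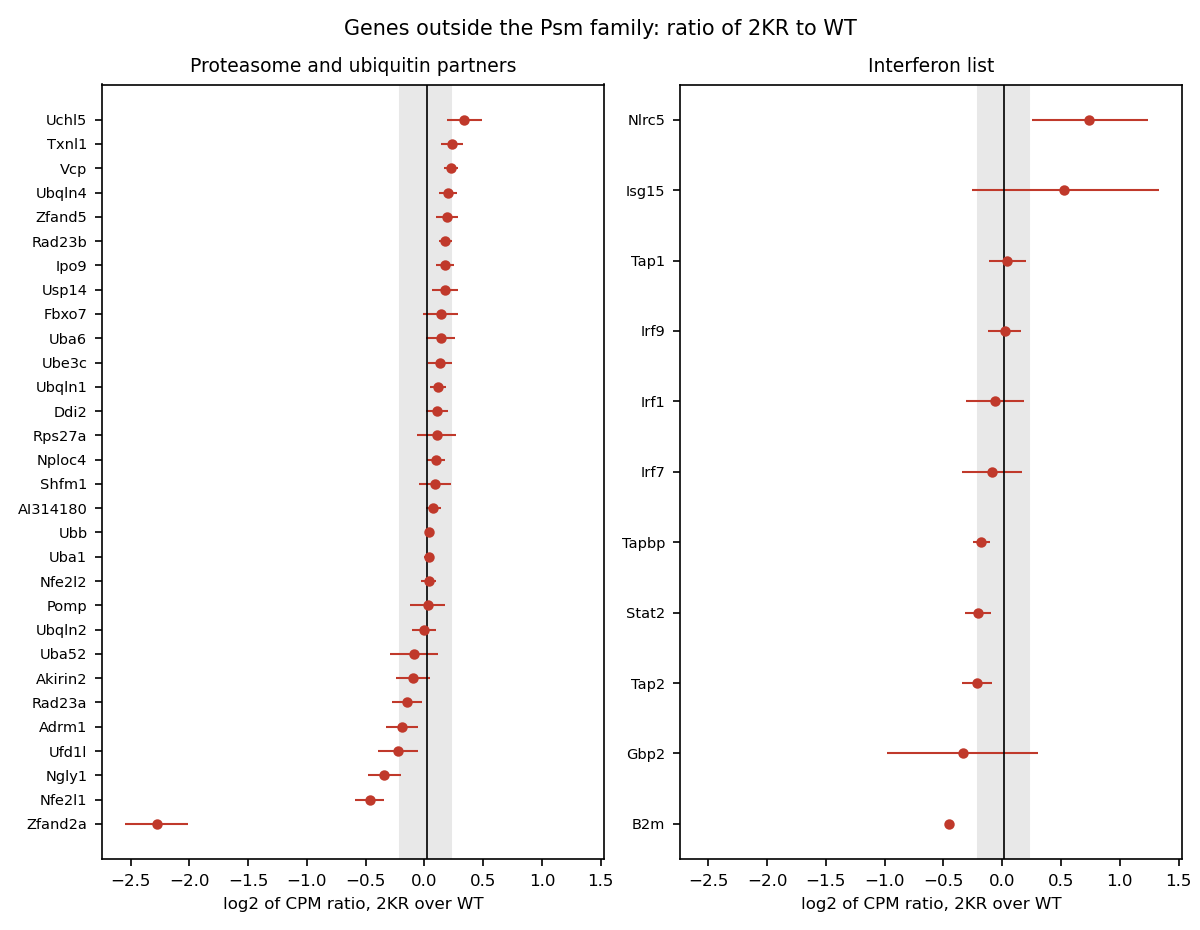
Ratio of CPM in 2KR over WT on a log2 axis without a pseudocount for tested partner genes (left panel, 30 genes drawn) and interferon genes (right panel, 11 genes drawn), with exact 95% intervals that cover counting error only. The grey band marks the quartiles and the line the median of all models tested, both on the log2 scale of CPM + 1, unlike the points. Zfand2a lies far to the left of the other partners, and Nfe2l1, Ngly1 and B2m lie left of the band. The points of Gbp2, which has a wide interval, and of Ufd1l and Tap2, both close to the edge, also lie left of it.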

How the data were processed

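Transduced mHSPCs were measured by RNA-seq, with 1 library for 2KR and 1 for WT, grouped by the infection in the labels. HISAT2 2.0.4 and the build GRCm38 are named, per the submitters' processing notes; no source used here names the counting program, its annotation or its strand setting. The authors' deposited tables, per the file headers, list raw counts and FPKM for every gene model. Dividing a count by 1 fixed length and its library's sum returned the FPKM, to 0.1%, for 15403 of 15403 models. Totals were 20462011 counts in 2KR and 17606168 in WT, which set the counting intervals.

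Counts were scaled with edgeR 4.0.16 TMM factors in R 4.3.3 (1.007 for 2KR, 0.993 for WT). The rest used scipy 1.17.1 and pandas 2.3.3 under Python 3.11.15. Log2 ratios compare CPM + 1 in 2KR with CPM + 1 in WT where the mean reached 1 CPM; this understates differences of low genes, and a fold, a ratio or an interval printed in the text uses no pseudocount. Percentages of all models use the same rule. Intervals were Clopper-Pearson (exact) or Wilson, at 95%. The ratio and interval code was tested on simulated data. Principal transcripts are the best APPRIS level in GENCODE M21, the longest not over 1.1 times the model. Windows of 50 bases were searched on both strands in GENCODE M21 transcripts. Promoters are from RefSeq.

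The members, lists and tests were chosen with earlier results of these data known. Named genes were all catalytic, assembly, activator and Psmf1 genes, the 3 largest log2 ratios and 2 highest FPKM of each other role, and of the partners the 6 largest ratios plus Nfe2l1, Nfe2l2, Pomp, Adrm1 and Sem1. Psmb3, Psmc2, Psmd5, Psmd6, Psmd10, Psmd13, Psmd14, Ddi2, Vcp, Ubb and the neighbours and markers named were chosen after their values were seen. DESeq2 1.42.0 gave an alternative scaling. A few listed genes are counted in their lists but not reported here.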

Additional observations from a re-analysis of the deposited data

How the results depend on the processing

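Each form had 1 library, so variation between cultures was not measured, no library could be left out, and counts bound counting error alone. No paired analysis was possible because each group has 1 sample. The number of proteasome genes at least 25% higher in 2KR was 6, and 5 to 8 under the other pseudocounts, filters, scalings and FPKM planned, with 0 at least 20% lower under each of these. With a mean of at least 20 CPM, added after the data were seen, it was 3 of 39, with fewer genes tested. The median log2 ratio was 0.13, and it was 0.15 with library totals, 0.15 on FPKM and 0.11 with ratios centred on the median of all models, which removed a shift of 0.02. The share of the immuno genes among the 6 catalytic genes was 23.8% of counts in 2KR and 23.0% in WT, 20.6% and 17.5% on FPKM, and 16.8% and 15.9% per kilobase of principal transcript, which was also added later; the change comes from the lengths divided by. The summed ratio was 1.07 to 1.10 for the core and 1.08 to 1.11 for the 19S particle over the scalings tried. Within their counting intervals stayed 282 of 282 single-gene values under 6 settings. Changes of scaling moved all genes by nearly the same small amount, so for them this check could hardly fail. Psma6, Psmb5, Psmd6 and Psmf1 changed sides with library totals and on FPKM, and Psmc2 with centred ratios.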

Other observations

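Models that share long stretches with proteasome transcripts had counts of their own. Gm8394, which shares 443 windows of 50 bases with the Psma5 transcript, had 297 counts in 2KR and 211 in WT. Gm5422, which shares 745 windows with Psmd2, had 85 counts in 2KR and 54 in WT. A730017L22Rik, which shares 528 windows with Psmd11, had 173 counts in 2KR and 164 in WT. These values were not added to the genes they resemble.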
